A study of Mus musculus with 18 samples.

Results

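The TNF superfamily ligands are trimeric proteins, most of them anchored in the membrane, through which T cells signal to neighbouring cells that carry the matching receptors. The set described here holds Tnf, Lta, Ltb, Tnfsf8, Tnfsf10, Tnfsf11, Tnfsf14, Cd40lg, Fasl and Tnfsf4, selected by gene symbol. It was chosen with earlier results of these data known, so the shares of ligands called below are descriptions only. All 10 ligands were found in all 3 expression tables, among the 10800 genes that the tables share, and all 10 passed the filter on low values in every comparison. Their transcripts were followed in 18 RNA-seq libraries from mouse CD8+ T cells, in 8 groups. Among the cultures, 2 libraries came from cells infected with a retrovirus that enhances Nr4a1 expression (Nr4a1-OV) and 2 from cells infected with RV-GFP, its control. A further 2 Nr4a1 WT and 2 Nr4a1 KO libraries came from naive cells activated on plate-bound anti-CD3 and anti-CD28 at 2 µg/mL. All 8 cultured libraries came from cells restimulated with PMA and ionomycin for 2 h, a pair of drugs that bypasses the T cell receptor. Tumour-infiltrating OT-I cells, whose transgenic receptor recognises an ovalbumin peptide, were sorted on day 21 of tumour growth as Nr4a1RFP+ (2 libraries) or Tim-3+ (2 libraries), both of WT genotype. Further tumour-infiltrating OT-I cells were sorted as Ly108+ and were Nr4a1+/+ (labelled Nr4a1 WT, 3 libraries) or Nr4a1-/- (labelled Nr4a1 KO, 3 libraries). The labels do not give the tumour line, the ages of the mice, the driver of the retroviral insert or whether libraries of a group came from separate mice or cultures, so each p-value measures the spread between these libraries, which may be technical.

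NR4A1 is a nuclear receptor that T cells switch on within hours of antigen receptor signalling, and it is known to hold back effector gene expression in CD8+ T cells. The ligands fall into 3 functional groups. TNF and the lymphotoxins encoded by Lta and Ltb drive inflammation through TNF receptors and the lymphotoxin beta receptor, and Ltb, which stays in the membrane, forms a heterotrimer with lymphotoxin alpha. CD40 ligand, CD30 ligand (Tnfsf8), OX40 ligand (Tnfsf4), LIGHT (Tnfsf14) and RANKL (Tnfsf11) act mainly as costimulators or differentiation signals, while FAS ligand and TRAIL (Tnfsf10) can trigger apoptosis in cells that carry death receptors. Several of these genes are known targets of NFAT, AP-1 and NF-kB after T cell activation. Ly108 marks the progenitor-like fraction of exhausted CD8+ T cells, and Tim-3 marks the more terminally differentiated fraction.

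In the GENCODE M21 annotation of GRCm38, all 10 are protein-coding genes. Ltb (chr17:35194439-35196320, plus strand), Tnf (chr17:35199381-35202007, minus strand) and Lta (chr17:35203165-35205351, minus strand) lie side by side, with 3060 bases between Ltb and Tnf and 1157 bases between Tnf and Lta. Tnfsf14 lies farther along the same chromosome (chr17:57189492-57194177, minus strand). Tnfsf4 (chr1:161395409-161418410, plus strand) and Fasl (chr1:161780689-161788495, minus strand) are separated by 362278 bases. The others lie alone, Tnfsf10 at chr3:27317028-27342427 (plus strand), Tnfsf8 at chr4:63831308-63861347 (minus strand), Tnfsf11 at chr14:78277445-78308043 (minus strand) and Cd40lg at chrX:57212143-57224042 (plus strand).

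Promoter sequences from RefSeq (GRCm38.p6) were found for 8 of the 10 ligands, those other than Cd40lg and Tnfsf4. In windows from 250 bases before to 50 bases after the RefSeq gene start, both strands were searched for 4 motifs. NBRE (AAAGGTCA), the element that NR4A1 can bind as a monomer, was in 0 of the 8 windows and in 1.51% of all 32851 windows. The NFAT core TGGAAA was in those of Tnf, Tnfsf10 and Tnfsf14 (3 of 8, against 21.4% of all windows), the AP-1 element TGANTCA in that of Tnfsf14 (1 of 8, against 7.81%) and a relaxed NF-kB (kB) pattern in that of Ltb (1 of 8, against 1.63%). No match says only that these letters are absent from the window, and a match is a description of the sequence, not a measured binding site. The stretch from 250 to 71 bases before the RefSeq start is printed for the 4 ligands with a match, because they include ligands that fell, that rose and that were not called with Nr4a1-OV. The RefSeq start is the GENCODE start given above for Tnf, but lies 68 bases downstream of it for Ltb, 49 bases downstream for Tnfsf10 and 4 bases upstream for Tnfsf14. Each stretch reads 5' to 3' on the strand of its gene, with the matched letters in capitals. The stretches are chr17:35202078-35202257 for Tnf (minus strand), chr17:35194257-35194436 for Ltb (plus strand), chr17:57194252-57194431 for Tnfsf14 (minus strand) and chr3:27316827-27317006 for Tnfsf10 (plus strand). In Tnf and Tnfsf10 the capitals mark an NFAT core read on the opposite strand, in Ltb a kB pattern read on the opposite strand, and in Tnfsf14 first the AP-1 element and then an NFAT core.
Tnf: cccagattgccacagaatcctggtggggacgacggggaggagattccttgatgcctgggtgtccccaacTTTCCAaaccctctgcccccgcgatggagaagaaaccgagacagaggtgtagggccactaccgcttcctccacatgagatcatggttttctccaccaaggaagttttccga
Ltb: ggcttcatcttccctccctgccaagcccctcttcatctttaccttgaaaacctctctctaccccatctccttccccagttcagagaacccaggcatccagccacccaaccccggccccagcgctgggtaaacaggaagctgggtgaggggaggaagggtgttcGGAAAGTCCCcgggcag
Tnfsf14: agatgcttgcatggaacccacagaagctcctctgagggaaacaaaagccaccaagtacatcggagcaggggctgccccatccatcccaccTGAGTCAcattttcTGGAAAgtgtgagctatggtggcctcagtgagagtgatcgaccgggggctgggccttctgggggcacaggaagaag
Tnfsf10: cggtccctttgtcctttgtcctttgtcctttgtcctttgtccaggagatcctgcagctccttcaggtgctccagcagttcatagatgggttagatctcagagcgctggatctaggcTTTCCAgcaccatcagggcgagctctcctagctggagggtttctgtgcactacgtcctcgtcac

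Depth was 16.8 to 17.1 M counts in the cultured libraries and 15.2 to 24.1 M recovered reads in the tumour libraries. Levels below are the deposited RPKM (reads scaled to transcript length and library size), which can be compared between genes. In the cultured libraries the size used for RPKM was not the plain count total. The 8 cultured libraries, the Nr4a1RFP+ and Tim-3+ libraries, and the Ly108+ libraries are in 3 tables normalised separately, so levels are set side by side across tables with no test. The CD8 T cell markers Cd3d, Cd3e, Cd3g, Cd8a and Cd8b1 were detected in every group, and the markers of that list, Trac included where its table holds it, summed to 1555 to 3627 RPKM. Nr4a1 itself stood at 1513 and 1447 RPKM in Nr4a1-OV, 564.7 and 624.5 RPKM in RV-GFP, 82.7 and 96.31 RPKM in cultured Nr4a1 WT and 102.9 and 102.6 RPKM in cultured Nr4a1 KO. In Ly108+ cells it was 53.89, 46.37 and 45.02 RPKM in Nr4a1 WT and 112.4, 100.6 and 102.2 RPKM in Nr4a1 KO. The libraries labelled Nr4a1 KO thus held more Nr4a1 message than those labelled Nr4a1 WT (edgeR adjusted p = 0.0171 in culture, limma adjusted p = 4.339e-04 in Ly108+ cells), against their label. A transcript without its coding function could still be counted, and which part of the gene was altered is not given in the labels. Directions for these libraries are therefore given by their label only. In bulk RNA, fewer cells of a type and less RNA per cell cannot be told apart.

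**Figure D1:**
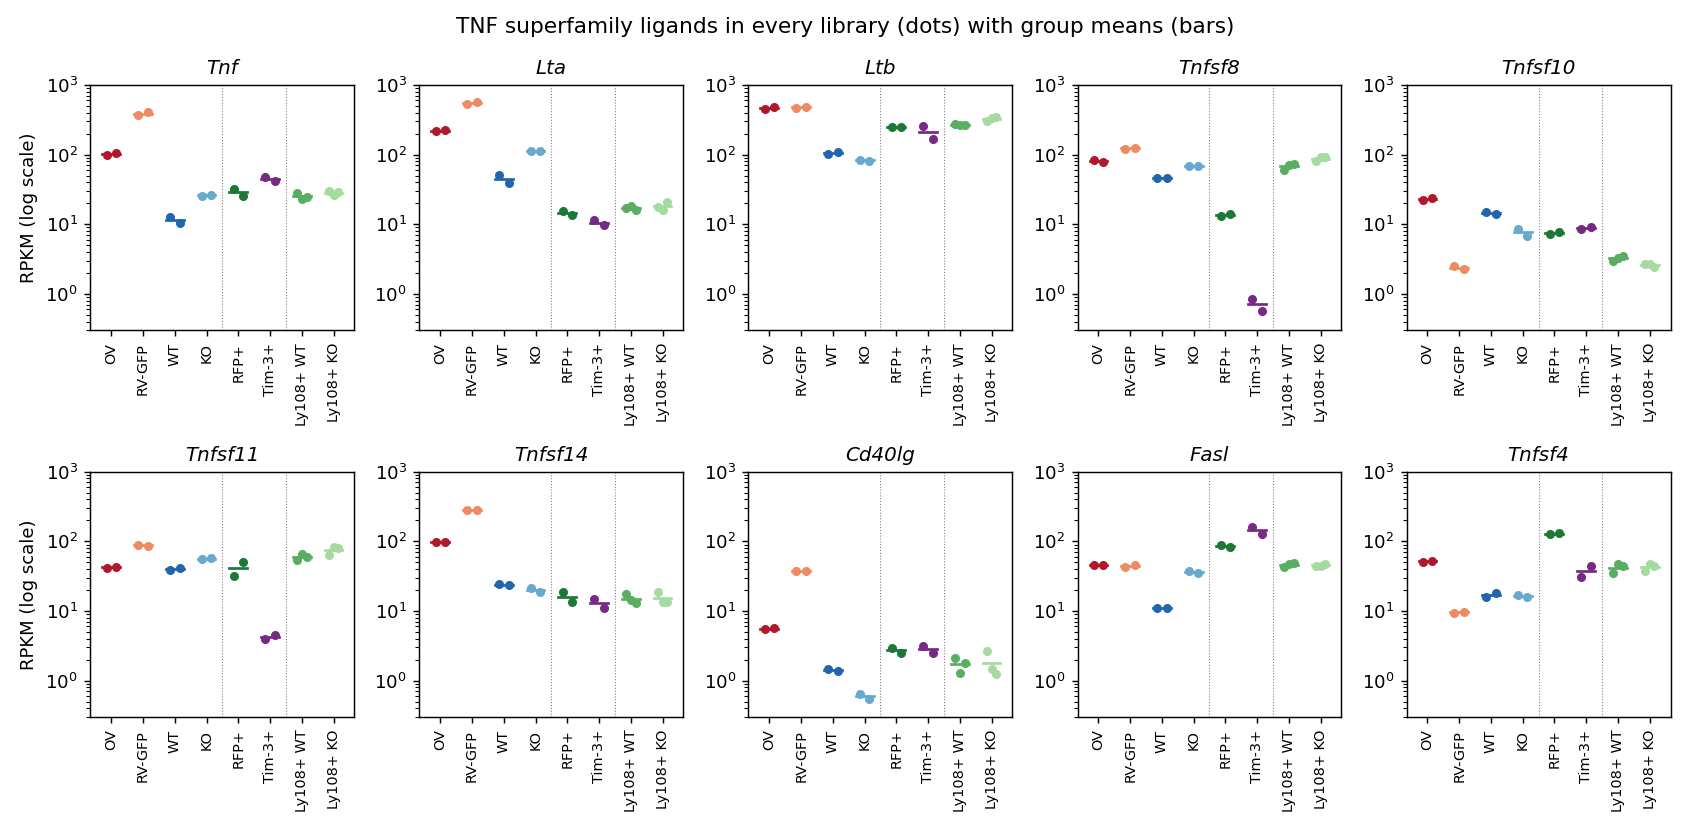
RPKM of each ligand (log scale) in every library of the 8 groups, with libraries as dots and group means as bars; dotted lines separate the 3 tables. Tnf, Lta, Tnfsf14 and Cd40lg were highest in RV-GFP, Tnfsf8 and Tnfsf11 were lowest in Tim-3+ cells, and Ltb was the highest of the ligands in each of the 4 tumour groups.

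In culture the ligands together summed to 1955 and 2060 RPKM in RV-GFP, 1113 and 1153 in Nr4a1-OV, 420.9 and 428.4 in Nr4a1 KO and 312.2 and 318.1 in Nr4a1 WT. RV-GFP held the highest level of 7 ligands, and Nr4a1-OV that of the other 3 (Tnfsf10, Fasl and Tnfsf4). Nr4a1 WT was lowest for 5 ligands, Nr4a1 KO for 3 (Ltb, Tnfsf14 and Cd40lg) and RV-GFP for 2 (Tnfsf10 and Tnfsf4). When the 4 groups were ordered by level for each ligand, 26 of the 30 pairs of neighbours differed (edgeR's quasi-likelihood test, adjusted p under 0.05). Over all 14994 genes tested, 60.9% were called between Nr4a1-OV and RV-GFP, 40.1% between Nr4a1 KO and WT, 71% between RV-GFP and WT, 66.3% between Nr4a1-OV and WT, 66.5% between Nr4a1-OV and KO and 69.6% between RV-GFP and KO. The neighbours that did not pass were RV-GFP and Nr4a1-OV for Ltb (adjusted p = 0.475), Nr4a1-OV and RV-GFP for Fasl (adjusted p = 0.356), Nr4a1-OV and WT for Tnfsf11 (adjusted p = 0.176) and WT and KO for Tnfsf4 (adjusted p = 0.699). The ratio of the highest to the lowest group mean was 62.4 for Cd40lg, 33.7 for Tnf, 14.01 for Tnfsf14 and 12.4 for Lta. It was 9.61 for Tnfsf10, 5.81 for Ltb, 5.39 for Tnfsf4 and 4.18 for Fasl, and smallest for Tnfsf8 (2.68) and Tnfsf11 (2.17).

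The first comparison asked how the ligands differ when Nr4a1 is raised. In Nr4a1-OV, 6 ligands fell (Tnf, Lta, Tnfsf8, Tnfsf11, Tnfsf14 and Cd40lg), Tnfsf10 and Tnfsf4 rose, and Ltb and Fasl were not called, against RV-GFP. That is 8 of 10 called, where 60.9% of all genes tested were called, 31.3% higher and 29.6% lower. The libraries of the groups did not overlap for 9 of 10 ligands, all but Ltb, beside 79.6% of all genes. The median log2 fold change of the ligands was -0.83, beside 0.02 over all genes. The second comparison set the cultured libraries labelled Nr4a1 KO against those labelled Nr4a1 WT. There 5 ligands were higher (Tnf, Lta, Tnfsf8, Tnfsf11 and Fasl), 4 were lower (Ltb, Tnfsf10, Tnfsf14 and Cd40lg) and Tnfsf4 was not called. These 9 of 10 stand beside 40.1% of all genes called, 18.4% higher and 21.6% lower, with a median log2 fold change of 0.22 for the ligands and -0.03 for all genes. Here 9 of 10 ligands, all but Tnfsf4, did not overlap, beside 69% of all genes.

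Tnf encodes the founding member of the family, a cytokine that acts on nearly all nucleated cells. Its level was 372.6 and 401.9 RPKM in RV-GFP, 98.15 and 104.3 in Nr4a1-OV, 25.68 and 26.31 in Nr4a1 KO and 12.54 and 10.41 in Nr4a1 WT. None of the 4 groups overlapped. Tnf was 3.82-fold lower in Nr4a1-OV than in RV-GFP (log2 fold change -1.93, SE 0.06, adjusted p = 3.036e-16) and 2.27-fold higher in Nr4a1 KO than in WT (log2 1.18, SE 0.09, adjusted p = 5.13e-10). Lta encodes lymphotoxin alpha, a secreted relative that shares TNF's receptors. It had the same order, at 530.2 and 576.6 RPKM in RV-GFP, 214.8 and 225.6 in Nr4a1-OV, 112 and 111.1 in KO and 50.54 and 38.78 in WT. The differences were log2 -1.33 (SE 0.07, adjusted p = 2.106e-12) for the virus and log2 1.32 (SE 0.08, adjusted p = 4.86e-11) for the genotype label.

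Ltb, the third gene of the chromosome 17 cluster, did not share that order. It was measured at 470.8 and 489.8 RPKM in RV-GFP and 451.1 and 478.1 in Nr4a1-OV, ranges that overlap, and differed by -0.04 on the log2 scale (SE 0.05, adjusted p = 0.475). In Nr4a1 WT it was 102.3 and 107.3 RPKM and in Nr4a1 KO 83.6 and 81.77, a small decrease with no overlap (log2 -0.34, SE 0.06, adjusted p = 4.528e-05). As a share of the RPKM summed over the 10 ligands, Ltb made up 23.8% and 24.1% in RV-GFP and 40.5% and 41.5% in Nr4a1-OV, where Tnf went from 19.1% and 19.5% to 8.82% and 9.04%.

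Among the costimulatory ligands, Cd40lg, the ligand through which helper T cells license B cells and dendritic cells, varied most. It was 37.36 and 37.43 RPKM in RV-GFP, 5.489 and 5.599 in Nr4a1-OV, 1.47 and 1.365 in Nr4a1 WT and 0.6503 and 0.5476 in Nr4a1 KO. The fall in Nr4a1-OV was 6.72-fold (log2 -2.75, SE 0.10, adjusted p = 2.192e-15). The decrease in KO (log2 -1.23, SE 0.28, adjusted p = 0.00111) rests on 14 and 12 counts against 33 and 31, and has the largest error of the ligands in these comparisons. Tnfsf14, which encodes LIGHT, a ligand of HVEM and the lymphotoxin beta receptor, stood at 279.2 and 283.8 RPKM in RV-GFP and 99.16 and 97.16 in Nr4a1-OV, 2.86-fold lower (log2 -1.52, SE 0.05, adjusted p = 1.472e-15). Its levels of 24.28 and 23.64 RPKM in WT and 21.16 and 19.02 in KO differed little (log2 -0.25, SE 0.07, adjusted p = 0.00514), and that call was lost without KO replicate 2 (adjusted p = 0.115).

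Tnfsf8, the ligand of CD30, and Tnfsf11 (RANKL), best known for osteoclast and lymph node development, moved less. Tnfsf8 was 122.2 and 126.2 RPKM in RV-GFP, 82.86 and 77.58 in Nr4a1-OV, 67.44 in both KO libraries and 46.19 and 46.35 in WT. It fell by 0.63 on the log2 scale with the virus (SE 0.05, adjusted p = 8.726e-10) and was 0.54 higher in KO (SE 0.05, adjusted p = 4.072e-08). Tnfsf11 was 87.21 and 86.98 RPKM in RV-GFP, 41.76 and 42.96 in Nr4a1-OV, 55.25 and 57.12 in KO and 38.86 and 41.44 in WT. Its differences were log2 -1.04 (SE 0.06, adjusted p = 1.13e-12) for the virus and log2 0.49 (SE 0.06, adjusted p = 5.049e-07) for the genotype label. Tnfsf4, the OX40 ligand that is better known from antigen-presenting cells, went the other way with the virus. It was 51.01 and 52.53 RPKM in Nr4a1-OV against 9.476 and 9.748 in RV-GFP, a 5.398-fold increase (log2 2.43, SE 0.08, adjusted p = 2.164e-16). At 16.12 and 17.88 RPKM in WT and 16.89 and 16.1 in KO, the genotype groups overlapped (log2 -0.04, SE 0.08, adjusted p = 0.699).

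The death ligands differed from each other. Tnfsf10, which encodes TRAIL, was 22.49 and 23.39 RPKM in Nr4a1-OV and 2.535 and 2.24 in RV-GFP, a 9.63-fold increase and the largest change of any of the 10 ligands in that comparison (log2 3.27, SE 0.09, adjusted p = 6.358e-17). In culture without virus it was 14.89 and 13.92 RPKM in WT and 8.467 and 6.868 in KO (log2 -0.91, SE 0.08, adjusted p = 8.415e-09). Fasl, a killing molecule of cytotoxic T cells, was close between the virus groups, at 46.23 and 45.79 RPKM in Nr4a1-OV and 43.21 and 45.03 in RV-GFP (log2 0.06, SE 0.06, adjusted p = 0.356). It was 3.26-fold higher in the libraries labelled KO, at 37.26 and 34.63 RPKM against 10.9 and 11.14 in WT (log2 1.71, SE 0.07, adjusted p = 3.522e-14), the largest increase of the 10 ligands there.

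**Figure D2:**
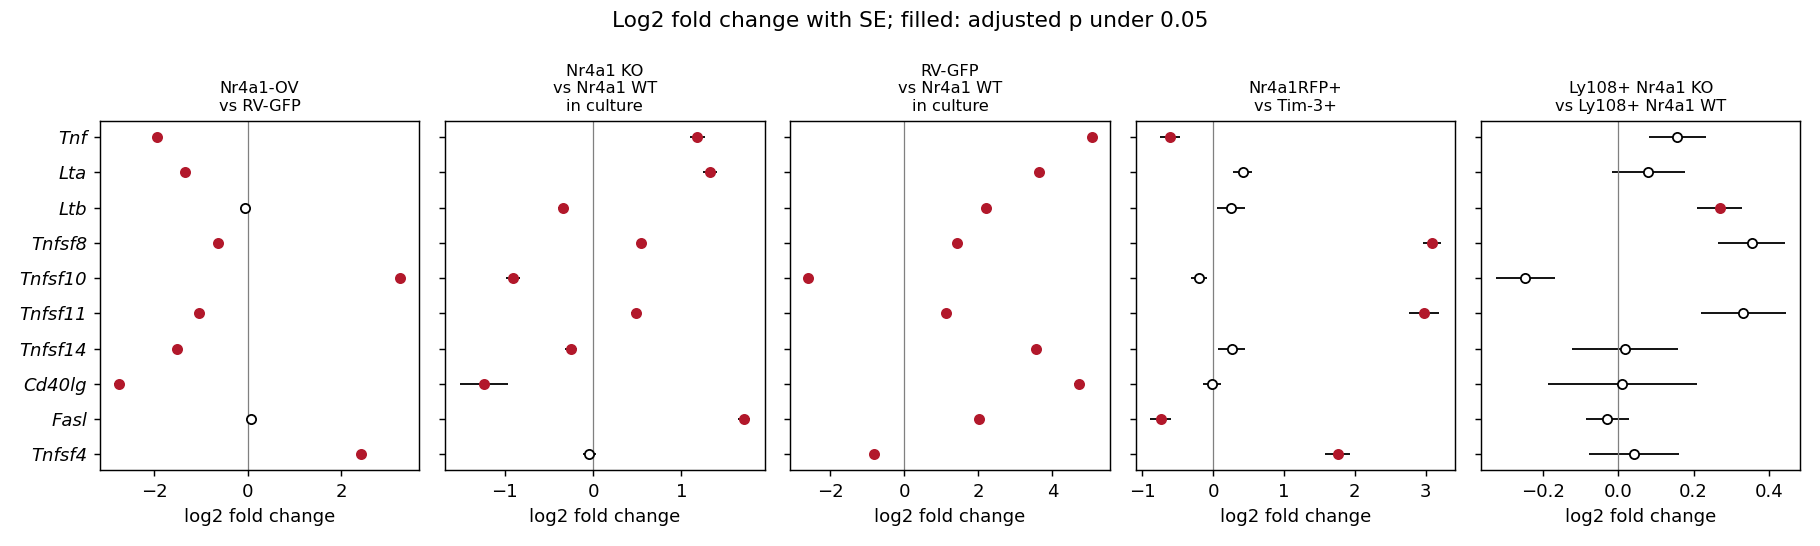
Log2 fold change of each ligand with its SE in 5 comparisons; filled circles passed an adjusted p of 0.05, and each panel has its own horizontal scale. With Nr4a1-OV 6 ligands fell and 2 rose, and between Ly108+ groups only Ltb passed.

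The virus and genotype contrasts share no library, so their values can be set against each other. Of the 7 ligands called in both, 5 moved in opposite directions: Tnf, Lta, Tnfsf8 and Tnfsf11 were lower with Nr4a1-OV and higher with the KO label, and Tnfsf10 was higher with Nr4a1-OV and lower with the KO label. Cd40lg and Tnfsf14 were lower in both, and Ltb, Fasl and Tnfsf4 were called in 1 of the 2 contrasts. Of all 14994 genes tested, 2592 (17.3%) were called in opposite directions and 1678 (11.2%) in the same direction. Among genes called in both contrasts, opposite directions were thus the more frequent over all genes as well. The difference between the effects was also tested as a contrast of its own, on the same libraries. For the 5 ligands called in opposite directions a pass follows from those calls and adds no separate evidence. The difference passed for 10 of 10 ligands, beside 55.8% of all genes. It was lower for the virus for 7 ligands, from log2 -1.17 for Tnfsf8 (SE 0.07, adjusted p = 1.957e-11) to -3.11 for Tnf (SE 0.10, adjusted p = 1.06e-15), against 26.2% of all genes. It was higher for 3 ligands, Ltb (log2 0.30, SE 0.08, adjusted p = 0.00213), Tnfsf4 (log2 2.47, SE 0.11, adjusted p = 6.891e-14) and Tnfsf10 (log2 4.18, SE 0.12, adjusted p = 1.502e-16), against 29.6% of all genes. The call for Ltb was lost without RV-GFP replicate 1 (adjusted p = 0.0617).

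**Figure D3:**
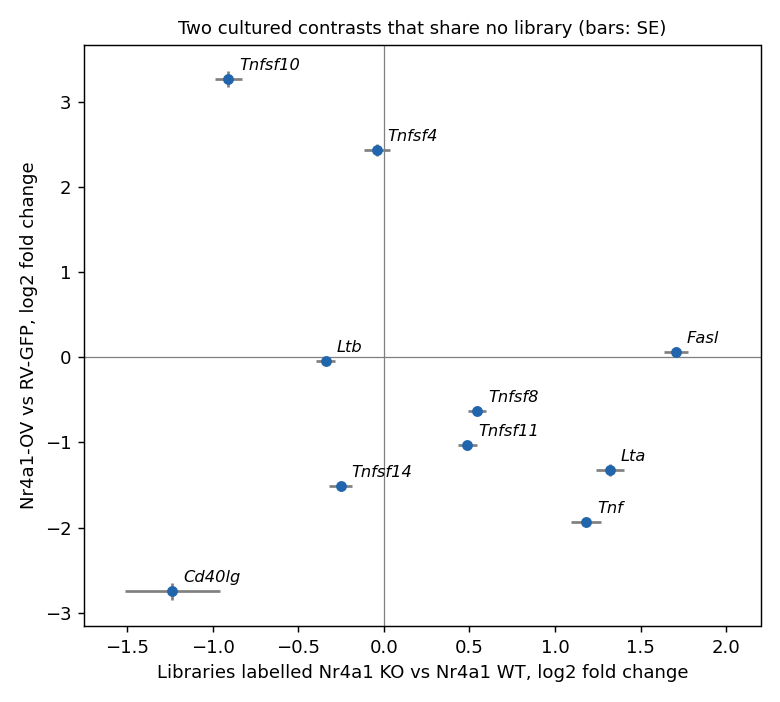
Log2 fold change of each ligand between libraries labelled Nr4a1 KO and Nr4a1 WT in culture (horizontal) and between Nr4a1-OV and RV-GFP (vertical), with SE bars. Tnf, Lta, Tnfsf8 and Tnfsf11 lie at lower right and Tnfsf10 at upper left, the quadrants of opposite sign, and Cd40lg and Tnfsf14 lie at lower left.

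The control groups of the cultures also differed widely. Between RV-GFP and Nr4a1 WT, 8 ligands were higher and 2 (Tnfsf10 and Tnfsf4) lower, 10 of 10 called where 71% of all genes were called, 32.4% higher and 38.6% lower. The median log2 fold change of the ligands was 2.11, beside -0.07 for all genes. Tnf was 33.9-fold higher (log2 5.08, SE 0.08), Cd40lg 26.4-fold (log2 4.72, SE 0.13), Lta 12.5-fold (log2 3.64, SE 0.08) and Tnfsf14 11.8-fold (log2 3.56, SE 0.06), with adjusted p of at most 4.332e-18. Ltb (log2 2.204, SE 0.05), Fasl (log2 2.01, SE 0.07), Tnfsf8 (log2 1.43, SE 0.05) and Tnfsf11 (log2 1.12, SE 0.06) were higher as well. Tnfsf10 (log2 -2.58, SE 0.10) and Tnfsf4 (log2 -0.81, SE 0.08) were lower. This comparison uses the RV-GFP libraries of the first comparison and the WT libraries of the second, and infection and the other differences in cell preparation cannot be told apart in it.

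Markers of other cell types moved with the cultured contrasts. Of all genes tested, 31.3% were higher and 29.6% lower with Nr4a1-OV, and 18.4% higher and 21.6% lower with the KO label. Between RV-GFP and WT these shares were 32.4% and 38.6%. Of the 4 CD4 and regulatory T cell markers, 3 were higher in Nr4a1-OV (Foxp3, Ikzf2 and Zbtb7b) and 0 were lower, and the list summed to 74.25 to 74.76 RPKM in Nr4a1-OV and 4.331 to 4.437 in RV-GFP. Cd4 was under 1 RPKM in every cultured group. With the KO label the same list summed to 15.32 to 16.52 RPKM against 20.17 to 22.06 in WT, with 1 higher and 2 lower. Of 3 NK and innate lymphoid markers in the table, 2 were tested and both were lower in Nr4a1-OV, with sums of 1.995 to 2.19 RPKM against 10.7 to 10.81. Myeloid markers summed to 14.16 to 14.59 RPKM in cultured KO and 5.06 to 5.359 in WT, where 2 of 3 tested were higher (Cd68 and Zbtb46), with Lyz2 and Itgam under 1 RPKM in both. The B cell markers in the table were both higher in Nr4a1-OV (2.145 to 2.485 against 1.003 to 1.266 RPKM summed), with Cd79a under 1 RPKM in every cultured group. Tumour and stromal markers summed to 10.88 to 11.35 RPKM in Nr4a1-OV against 6.105 to 6.397 in RV-GFP, with 2 of 3 higher (Pmel and Pecam1). In KO they summed to 12.59 to 13.09 against 19.81 to 22.47 in WT, with 2 of 3 lower. Most of each sum was Pecam1, at a mean of 7.667 RPKM in Nr4a1-OV, 5.255 in RV-GFP, 11.81 in KO and 19.18 in WT. Col1a1 was under 1 RPKM in every cultured group. Of the CD8 T cell markers 2 were higher and 3 lower in Nr4a1-OV, where Cd8a stood at 201.8 to 204.2 RPKM against 371.7 to 377.9 (log2 -0.88, adjusted p = 5.616e-12). With the KO label 2 of 6 CD8 T cell markers were higher and 2 lower. Between RV-GFP and WT, 3 of 4 CD4 and regulatory T cell markers and 3 of 3 tumour and stromal markers were lower, 1 of 2 B cell markers was lower, 2 of 2 NK and innate lymphoid markers were higher, and 3 of 6 CD8 T cell markers were higher and 2 lower. No listed marker in the table was at 0 in every library of a cultured group. The part of these markers in the ligand values was not tested.

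In the tumour, Nr4a1RFP+ cells were set against Tim-3+ cells to ask how the ligands differ between sorted populations. Columns headed Tex were read as the Tim-3+ libraries. Tnfsf8, Tnfsf11 and Tnfsf4 were higher in Nr4a1RFP+ cells, Tnf and Fasl were lower, and Lta, Ltb, Tnfsf10, Tnfsf14 and Cd40lg were not called. Thus 5 of 10 ligands passed (limma on log2 of RPKM plus 1), where 17.7% of all 9508 genes tested passed, 9.08% higher and 8.61% lower. The 2 Tim-3+ libraries agreed least of all pairs within a group. Their chi-square per degree of freedom over genes was 42.05, against 11.40 for the Nr4a1RFP+ pair, which limits these calls. The median log2 fold change of the ligands was 0.26 and that of all genes -0.01. The Nr4a1 message itself was 113.2 and 114.6 RPKM in Nr4a1RFP+ cells and 131.9 and 125 RPKM in Tim-3+ cells, and was not called (log2 -0.17, SE 0.12, adjusted p = 0.364).

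Tnfsf8 showed the largest difference, at 12.91 and 13.97 RPKM in Nr4a1RFP+ cells against 0.834 and 0.5756 in Tim-3+ cells (log2 3.09, SE 0.12, adjusted p = 5.413e-05), and fold changes on this scale understate the change of low genes. The Tim-3+ values correspond to 65 and 63 recovered reads. Tnfsf11 was 31.63 and 50.54 RPKM against 3.911 and 4.542 (log2 2.97, SE 0.21, adjusted p = 2.212e-04). Tnfsf4 was 125.6 and 130.7 RPKM, its highest level in the series, against 30.82 and 44.92 (log2 1.76, SE 0.18, adjusted p = 9.261e-04). These 3 costimulatory ligands stayed called without any single library.

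The effector ligands Tnf and Fasl had the opposite direction. Fasl was 89.2 and 82.18 RPKM in Nr4a1RFP+ cells and 160.6 and 128.6 in Tim-3+ cells, its highest level in the series (log2 -0.74, SE 0.15, adjusted p = 0.0139). Tnf was 32.32 and 25.81 RPKM against 47.48 and 42.08 (log2 -0.61, SE 0.14, adjusted p = 0.026). The libraries did not overlap for either gene, nor for Lta, Tnfsf8, Tnfsf10, Tnfsf11 and Tnfsf4, 7 of 10 ligands beside 61.2% of all genes. Both calls were lost without Nr4a1RFP+ replicate 1 (adjusted p = 0.0793 for Fasl and 0.0501 for Tnf) and without replicate 2 (0.165 and 0.304).

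The remaining ligands were not called between these populations. Lta was 15.5 and 13.37 RPKM against 11.48 and 9.657 (log2 0.42, SE 0.13, adjusted p = 0.0745), a range far below its level in any cultured group. Ltb was 252 and 247 RPKM in Nr4a1RFP+ cells, and its 257.2 and 169.7 RPKM in Tim-3+ cells spanned them (log2 0.25, SE 0.20, adjusted p = 0.444). Tnfsf14 was 18.47 and 13.25 RPKM against 15.02 and 11.05 (log2 0.26, SE 0.19, adjusted p = 0.409). Tnfsf10 was 7.132 and 7.822 RPKM against 8.46 and 9.049 (log2 -0.20, SE 0.11, adjusted p = 0.266), and Cd40lg 2.976 and 2.529 against 3.087 and 2.504 (log2 -0.01, SE 0.13, adjusted p = 0.952). Without Tim-3+ replicate 1, Lta, Ltb and Tnfsf14 were called higher too, with adjusted p of 0.00188, 8.932e-04 and 0.0202.

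Other markers differed between these populations, where 9.08% of all genes were called higher in Nr4a1RFP+ cells and 8.61% lower. The NK and innate lymphoid list, of which 3 of 5 genes are in the table, summed to 4.502 to 6.311 RPKM in Nr4a1RFP+ and 32.91 to 39.74 RPKM in Tim-3+ cells, with 1 of 2 tested genes lower (Fcer1g) and Klrb1c under 1 RPKM in both groups. The 8 myeloid and dendritic cell markers summed to 47.49 to 57.11 RPKM against 22.37 to 23.41, with 2 of 4 tested higher (Cd68 and Zbtb46), 1 lower (Tyrobp), and Csf1r, Itgam, Fcgr3 and Flt3 under 1 RPKM in both. The CD4 and regulatory T cell list summed to 17.59 to 22.57 against 5.304 to 6.359 RPKM, with Cd4 and Foxp3 under 1 RPKM in both groups. Most of that sum was Ikzf2 (16.9 to 21.93 against 4.093 to 5.376 RPKM), the only gene of the list tested, which was higher. Mean Zbtb7b (0.495 against 0.932 RPKM) and Foxp3 (0.026 against 0.085 RPKM) were lower. Tumour and stromal markers summed to 14.47 to 14.7 against 7.231 to 7.586 RPKM. Most of this was Pecam1 (10.85 to 11.32 against 5.436 to 6.003 RPKM), with Mlana, Col1a1 and Col3a1 under 1 RPKM in both groups. Erythroid and platelet markers differed between the 2 Nr4a1RFP+ libraries, with sums of 1.514 and 39.05 RPKM, against 12.52 to 19.94 in Tim-3+ cells. Hba-a1 was 0.6981 to 20.33 RPKM and Hbb-bs 0.3691 to 18.04 in Nr4a1RFP+ cells, and 0 of the 2 genes of that list tested were called. None of these markers was at 0 in every library of a group, and their part in the ligand values was not tested.

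Among Ly108+ tumour cells, the comparison of libraries labelled Nr4a1 KO with those labelled Nr4a1 WT gave 1 called ligand of 10, Ltb, where 4.45% of all 11265 genes tested were called, 2.04% higher and 2.41% lower. Ltb was 303.8, 332 and 341.1 RPKM in KO and 277.6, 267.3 and 264.1 in WT, with no overlap (log2 0.27, SE 0.06, adjusted p = 0.0496). That call lies at the threshold and was lost in 9 of the other ways of analysis, among them a pseudocount of 0.1 (adjusted p = 0.0502) and no filter on low values (adjusted p = 0.0587). It was also lost without KO replicate 2 (0.179), KO replicate 3 (0.151) or any WT replicate (0.0955, 0.175 and 0.165). Tnfsf8 was higher in all 3 KO libraries, at 80.45, 90.96 and 91.45 RPKM against 59.83, 71.9 and 73.78, but did not pass (log2 0.35, SE 0.09, adjusted p = 0.0677). Tnfsf10 was 2.662, 2.683 and 2.46 RPKM against 2.975, 3.323 and 3.542 (log2 -0.25, SE 0.08, adjusted p = 0.118), lower without overlap and likewise not called. Tnfsf11 was 63.74, 83.98 and 80.68 RPKM against 54.04, 65.96 and 60.12, and the groups overlapped (log2 0.33, SE 0.11, adjusted p = 0.136). With the replicate number as a block, Tnfsf8 and Tnfsf11 were called and Ltb was not, though the labels do not tie same-numbered libraries.

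The groups did not overlap for 3 of 10 ligands (Ltb, Tnfsf8 and Tnfsf10), beside 29.4% of all genes, a share close to that of the ligands. The other 6 ligands overlapped between the Ly108+ groups. Tnf, which was higher with the KO label in culture, was 29.62, 26.2 and 28.72 RPKM in KO and 27.68, 23.05 and 24.92 in WT (log2 0.16, SE 0.08, adjusted p = 0.264). Fasl was 44.75, 43.8 and 46.52 RPKM against 42.82, 46.47 and 48.78 (log2 -0.03, SE 0.06, adjusted p = 0.794), where the culture had shown log2 1.71. The log2 fold changes of Lta, Tnfsf14, Cd40lg and Tnfsf4 lay between 0.01 and 0.08, with SE from 0.10 to 0.20. Myeloid markers were higher with the KO label here as well, at 90.5 to 126.2 RPKM summed against 60.66 to 74.51. Of these, 2 of 5 tested were called (Lyz2 and Zbtb46), and Csf1r and Itgam were under 1 RPKM in both groups. Of all genes tested, 2.04% were called higher and 2.41% lower. The NK list summed to 5.528 to 6.586 against 3.405 to 4.345 RPKM, with Fcer1g called. Of 4 tumour and stromal markers tested, 1 was called higher, Col1a1 (3.824 to 6.324 against 0.7131 to 1.715 RPKM, log2 1.28, adjusted p = 0.027), and Col3a1 was 3.665 to 7.897 against 0.8344 to 2.071 RPKM (log2 1.20, adjusted p = 0.0597). That list summed to 53.56 to 62.05 against 50.09 to 50.66 RPKM. Of the CD4 and regulatory T cell markers, Ikzf2 was lower (12.85 to 14.25 against 17.02 to 18.64 RPKM, log2 -0.39, adjusted p = 0.0178), 1 of 3 tested. The CD8 T cell markers summed to 3322 to 3627 against 2498 to 2540 RPKM, with 2 of 6 higher. Most of that difference came from Trac (mean 2694 against 1746 RPKM), while Cd8a (178.2 against 176.3 RPKM) and Cd3e (88.89 against 88.41 RPKM) were close. The part of these markers in the values of Ltb was not tested.

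Set side by side across the tumour groups, Ltb was the most abundant ligand in each, between 40.1% and 51.7% of the RPKM summed over the 10 ligands in every tumour library. The ligand in second place differed: Tnfsf8 in both Ly108+ groups (68.5 RPKM ± 7.57 in WT and 87.6 ± 6.22 in KO, SD, n = 3), Tnfsf4 in Nr4a1RFP+ cells (128.1 RPKM) and Fasl in Tim-3+ cells (144.6 RPKM, 29.8% and 30.4% of the sum). Mean Tnfsf8 was 68.5 RPKM in Ly108+ WT cells, 13.4 in Nr4a1RFP+ and 0.705 in Tim-3+ cells, and mean Tnfsf11 was 60.0, 41.1 and 4.23 RPKM in the same groups. Mean Lta was 10.6 to 18.3 RPKM in the tumour groups and 44.7 to 553.4 RPKM in the cultured groups, and mean Tnf was 25.2 to 44.8 and 11.5 to 387.2 RPKM. Fasl was higher in Nr4a1RFP+ and Tim-3+ cells than the 11.02 to 46.01 RPKM of the cultured groups. The tumour cells were not described as restimulated, and the tables were normalised separately, so these levels carry no test. The labels do not give the sort day of the Ly108+ cells or which library preparation each group had. Such differences between tables cannot be told apart from differences between the cells.

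The receptors that these ligands bind were examined from a list of 11 genes, as were other ligands of the family. Against RV-GFP, 4 of 9 receptors tested were higher in Nr4a1-OV and 3 lower, beside 31.3% and 29.6% of all genes. Their median log2 fold change was 0.22, beside 0.02 for all genes. Fas, the receptor of FAS ligand, was higher (log2 1.12, adjusted p = 2.232e-11), as were Tnfrsf1b, the TNF receptor prominent on T cells (log2 0.73, adjusted p = 1.683e-09), Tnfrsf14 (HVEM, log2 0.37, adjusted p = 0.00291) and Tnfrsf11a (RANK). The last was called at under 1 RPKM in both groups, with 1 RV-GFP library at 0. Tnfrsf8 (CD30) fell by 1.90, Tnfrsf10b, the mouse TRAIL receptor, by 0.64 and Tnfrsf4 (OX40) by 0.34 on the log2 scale. Of the other ligands, Tnfsf9 (4-1BB ligand, log2 -1.78) and Cd70 (log2 -1.78) were lower, 2 of 3 tested. With the KO label in culture, 5 of 9 receptors were higher and Tnfrsf1b was lower (log2 -0.42), beside 18.4% and 21.6% of all genes. The increases were led by Tnfrsf11b (osteoprotegerin, log2 3.44) and Tnfrsf8 (log2 3.03), both from under 1 RPKM in WT.

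Among tumour cells, 3 of 7 receptors tested were higher in Nr4a1RFP+ than in Tim-3+ cells and 1 was lower, beside 9.08% and 8.61% of all genes. Fas was 23.78 to 23.85 RPKM against 6.258 to 9.784 (log2 1.49, adjusted p = 0.0021), Tnfrsf4 was 278 to 296.2 against 128.9 to 136.4 (log2 1.11, adjusted p = 0.00138) and Tnfrsf10b was higher by log2 0.45 (adjusted p = 0.0319). Tnfrsf8 was lower (log2 -0.64, adjusted p = 0.0224), where its ligand Tnfsf8 was higher. Cd70 (log2 1.70, adjusted p = 4e-04) and Tnfsf9 (log2 1.26, adjusted p = 0.0014) were higher, so that 2 of the 3 other ligands tested were higher with Tnfsf4, Tnfsf8 and Tnfsf11. Between the Ly108+ groups limma called 0 of 7 receptors, beside 4.45% of all genes. Of the 7, 1 (Tnfrsf4) had an unadjusted p under 0.05 (log2 0.18, limma adjusted p = 0.126).

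**Figure D4:**
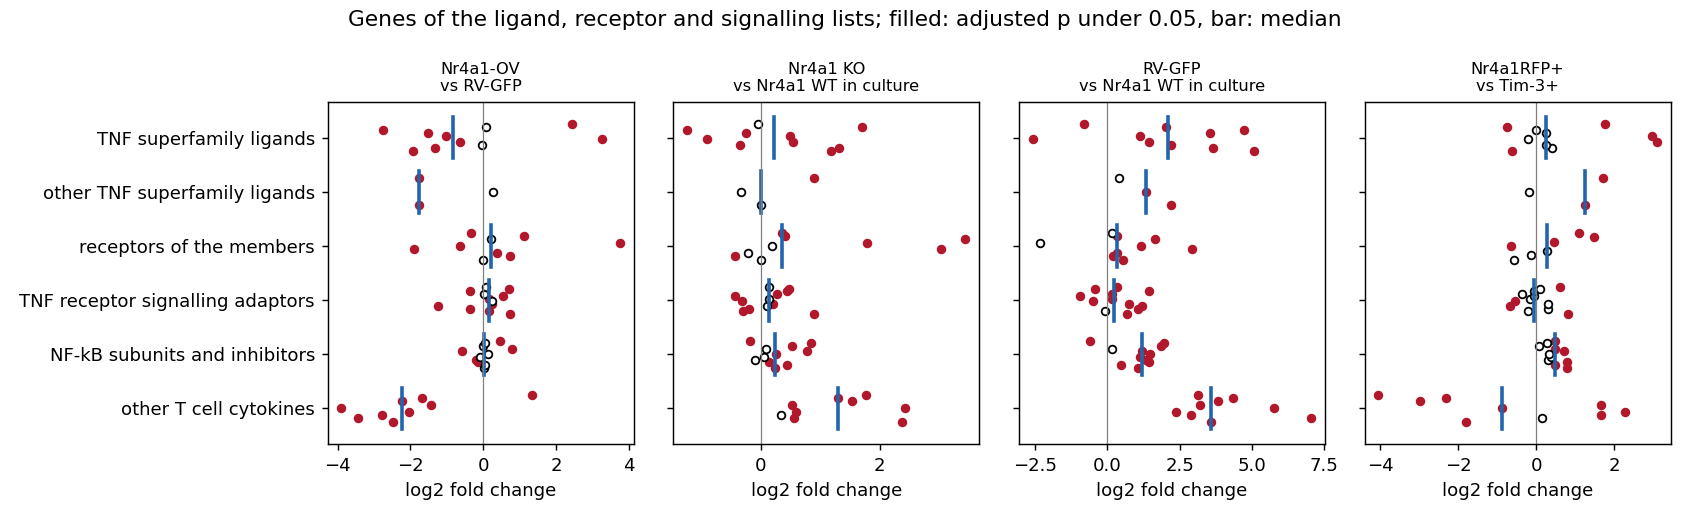
Log2 fold change of each tested gene of 6 lists in 4 comparisons, filled where the adjusted p was under 0.05, with the list median as a bar; each panel has its own horizontal scale. The other T cell cytokines had a median of -2.22 with Nr4a1-OV, 1.29 with the KO label in culture and -0.86 in Nr4a1RFP+ cells.

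Genes that carry or feed the signals were described by counts. Of all genes tested, 60.9% were called with Nr4a1-OV, with a median log2 fold change of 0.02, and 40.1% with the KO label in culture (median -0.03). Between Nr4a1RFP+ and Tim-3+ cells 17.7% were called (median -0.01), and between the Ly108+ groups 4.45%. Of 11 NF-kB subunits and inhibitors, 2 were higher and 3 lower with Nr4a1-OV (median log2 0.02), among them Nfkbie (log2 0.79) and Nfkbib (log2 -0.57). With the KO label in culture 7 were higher and 1 lower (median 0.24), including Tnfaip3, which encodes the NF-kB inhibitor A20 (log2 0.85), and Nfkbiz (log2 0.52). In Nr4a1RFP+ cells 6 were higher and 0 lower than in Tim-3+ cells (median 0.48), among them Rel (log2 0.80) and Nfkb1 (log2 0.80), and all 11 log2 fold changes were positive, from 0.07 to 0.80. In the Ly108+ groups Nfkbib was called (log2 0.30, adjusted p = 0.0137), 1 of 11. Of 12 receptor adaptors, 6 were higher and 3 lower with Nr4a1-OV, 5 higher and 4 lower with the KO label, and 2 higher and 2 lower in Nr4a1RFP+ cells. Traf1, an NF-kB target that binds several of the receptors, was higher in all 3 (log2 0.74, 0.90 and 0.82), and Traf5 was lower in Nr4a1-OV (log2 -1.25) and in Nr4a1RFP+ cells (log2 -0.66).

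Cytokines outside the family were set beside the ligands. Of all genes tested, 31.3% were higher and 29.6% lower with Nr4a1-OV, and 18.4% higher and 21.6% lower with the KO label in culture. In Nr4a1RFP+ against Tim-3+ cells these shares were 9.08% and 8.61%. With Nr4a1-OV, 8 of 9 tested fell, among them Il2 (log2 -3.43), Ccl3 (log2 -2.22) and Ccl4 (log2 -1.69), and Ccl5, named here after its value was seen, rose (log2 1.34). Their median was -2.22, beside -0.83 for the 10 ligands. With the KO label in culture, 8 of 9 were higher and 0 lower, among them Ifng (log2 2.38), Ccl5 (log2 1.78) and Ccl4 (log2 1.29), with a median of 1.29. In Nr4a1RFP+ cells 3 were higher, among them Csf2 (log2 2.27), and 5 lower, among them Ccl3 (log2 -2.97), while Il3 was 1.859 and 2.459 RPKM there and listed at 0 in both Tim-3+ libraries. Among the activation transcription factors, Egr1 and Egr2 were lower with Nr4a1-OV (log2 -0.95 and -0.94) and Jun was higher (log2 1.08), as 4 of 12 rose and 4 fell. Of 6 ligand-processing genes, 2 were higher and 3 lower with Nr4a1-OV, 2 higher and 1 lower with the KO label, and 0 higher and 1 lower in Nr4a1RFP+ cells. Among them Rhbdf2, a partner of the TNF-shedding protease ADAM17, was lower with Nr4a1-OV (log2 -1.002) and in Nr4a1RFP+ cells (log2 -0.66). It was higher with the KO label in culture (log2 0.55). Of 8 regulators of Tnf mRNA decay, 1 was higher and 3 lower with Nr4a1-OV, 0 higher and 4 lower with the KO label, and 1 higher and 1 lower in Nr4a1RFP+ cells. Among them Zfp36l1 was lower with Nr4a1-OV (log2 -0.36) and with the KO label (log2 -0.82) and higher in Nr4a1RFP+ cells (log2 0.73).

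Genes whose levels were most like those of each ligand were listed over the 8 cultured libraries, among 4319 genes that varied by at least 1 log2 unit between group means. The libraries form 4 tight groups, so these correlations describe an order of 4 group levels and carry no p. The closest was Gch1 for Tnf (Pearson r = 0.999), Cd3eap for Tnfsf14 (0.999), Camk2d for Ltb (0.999) and Sh2d2a for Tnfsf8 (0.999). Ankrd13b and H2-Q7 (both 0.998) were closest to Cd40lg and Fasl, and Ehd1 and Pros1 (both 0.997) to Lta and Tnfsf10. Vgll4 for Tnfsf4 and Ccl9 for Tnfsf11 came to 0.996. The share of these genes with r above 0.9 was 15.7% for Tnf, 14.7% for Tnfsf14 and 13.9% for Lta, but 2.2% for Fasl and 2.76% for Tnfsf11. Ehd1 was among the 3 closest genes of both Lta and Tnfsf8.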

How the data were processed

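RNA was sequenced from 18 libraries in 8 groups, assigned by the sample titles. Per the submitters' processing notes, the authors used Trim Galore, HISAT2, mm10, edgeR and DESeq2; versions, read counter and annotation are not given in the sources used here. The labels name both BGI and Smartseq2 library preparation without assigning them to samples. The cultured table, as deposited by the authors, holds read counts and RPKM. The tumour tables, as deposited, hold RPKM, with columns named Tex taken as the Tim-3+ libraries; another 2 columns match no labelled library and were not used.

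Counts were tested with edgeR 4.0.16 in R 4.3.3 (filterByExpr, TMM, quasi-likelihood test, 1 model of 8 libraries). For RPKM, limma-trend (limma 3.58.1) was run after adding 1 and taking log2, for genes at 1 RPKM or more in as many libraries as the smaller group holds, so that fold changes there understate changes of low genes. Tests were two-sided, adjusted by Benjamini-Hochberg over all genes tested, with a threshold of 0.05. For the tumour RPKM 88.8% and 95.6% of genes could be given a length and hence whole reads, and 97.8% to 98.9% of values under 200 reads were whole within 0.05. Alternatives used DESeq2 1.42.0, other filters, pseudocounts, scalings and subsets of libraries, and the scripts were tested on simulated data. The members and gene lists were chosen with earlier results of these data known. Named genes are all 10 ligands, any receptor of a ligand, and from each other list up to 3 genes past the threshold with the smallest adjusted p and no overlap between groups. Python 3.11.15 with matplotlib 3.10.9 made the figures.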

Additional observations from a re-analysis of the deposited data

Results flagged for a closer look

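The genotype label went with opposite changes of Ltb in the 2 settings. Ltb was lower in cultured libraries labelled Nr4a1 KO than in those labelled Nr4a1 WT (log2 fold change -0.34), and higher in the Ly108+ tumour libraries labelled Nr4a1 KO than in those labelled Nr4a1 WT (log2 fold change 0.27). The second call is at the threshold (limma adjusted p = 0.0496) and was lost in 9 other ways of analysis, among them leaving out KO replicate 2, KO replicate 3 or any WT replicate (adjusted p from 0.0955 to 0.179). Ltb was picked for this section because its KO and WT libraries did not overlap in either setting and differed in opposite directions. That separation is therefore no further support. Of all genes tested, 69% did not overlap in culture and 29.4% in Ly108+ cells. The difference between the settings was not tested, since they are in tables normalised separately.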

How the results depend on the processing

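Among the log2 fold changes of the 10 ligands under the alternatives, 109 of 110 with Nr4a1-OV, 108 of 110 with the KO label in culture, 110 of 110 between RV-GFP and WT and 129 of 130 for the difference between the effects kept direction and side of the threshold, as did 98 of 109 in Nr4a1RFP+ against Tim-3+ and 105 of 128 in Ly108+ cells. In Ly108+ cells the count of ligands called was 0 with a pseudocount of 0.1, without a filter or with rescaled RPKM, and 2 with edgeR on recovered reads, which called 978 genes against 501. Leaving out 1 library gave 0 to 3 called ligands there (3 without KO replicate 1) and 69 to 1686 genes, and 3 to 8 ligands between Nr4a1RFP+ and Tim-3+ cells, where 723 to 3421 genes were called against 1682 and a filter at 5 RPKM gave 1089. Leaving out 1 library turned the direction of some ligands that were not called. With Nr4a1-OV, Fasl ranged from -0.01 (-0.0059, without RV-GFP replicate 1) to 0.0683, and with the KO label in culture Tnfsf4 from -0.1106 to 0.0339. Between Nr4a1RFP+ and Tim-3+ cells, Ltb ranged from -0.0441 to 0.5534 and Cd40lg from -0.1259 to 0.0962. In Ly108+ cells, Lta ranged from -0.0227 to 0.1682, Tnfsf14 from -0.1217 to 0.1336, Cd40lg from -0.2079 to 0.1508, Fasl from -0.0794 to 0.0126 and Tnfsf4 from -0.0735 to 0.1404. The causes were not tested. A lone library left in a group was assumed to vary like the others. Deviations across genes of same-numbered libraries had r = 0.273 for the virus groups, 0.1608 for cultured genotypes and 0.2433 for Nr4a1RFP+ and Tim-3+. In Ly108+ cells they had r = 0.3131, 0.1933 and 0.0052. There KO replicate 3 and WT replicate 2, which differ in number, had r = 0.2812. These values do not show that the numbers pair the libraries. With the replicate number as a block, 2 ligands were called in Ly108+ cells, Tnfsf8 (adjusted p = 0.0217) and Tnfsf11 (adjusted p = 0.0342), and Ltb was not (adjusted p = 0.0649), where 485 of all genes were called, while 6 ligands were called in Nr4a1RFP+ against Tim-3+, Lta added (adjusted p = 0.0286), where 2143 genes were called. The block left the counts of called ligands in culture at 8 with Nr4a1-OV (9003 genes called) and 9 with the KO label (5848 genes called). Cd40lg, at 12 to 33 counts in the cultured WT and KO libraries, is the ligand whose precision depth limits most.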
